A study of Rattus norvegicus with 16 samples.

Results

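The Hox genes of clusters A to D were followed in rat dorsal root ganglia (DRGs) taken from lumbar levels L3 to L5. They were all genes in the expression tables whose symbol is Hox with a cluster letter and a paralog number, which gave 41 entries under 39 symbols among the 21021 genes listed. Hoxa2 is entered under 2 gene identifiers, so that its reads may be split between the entries. Of the 41 entries, 26 passed the filter on low values (at least 1 FPKM in at least 3 samples) and were tested, among 14023 genes tested in all.

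RNA was sequenced from female adult Sprague-Dawley rats in 4 groups with 4 samples each. In the tumor cell implantation (TCI) groups, Walker 256 mammary carcinoma cells, grown as ascites in other rats, were injected into the left tibia, and DRGs were taken on day 1, 7 or 14. The sham group is labelled as injection of PBS with DRGs taken on day 14, while the methods of the study describe boiled tumor cells. Days 1 and 7 had no sham group of their own. In each rat the L3 to L5 ganglia of the injected side made up 1 sample, so that the levels cannot be separated within a sample and a sample with more tissue of one level would carry more of its RNA. The text of the study leaves out day 1 sample 2 and day 7 sample 3 for their low correlation with the others, so 14 samples entered the main tests and the values of the left-out samples are given beside them. Expression is given as FPKM, the fragments of a gene per kilobase of its transcript, scaled to all mapped fragments of the sample, which makes it a level per transcript length.

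Hox genes encode homeodomain transcription factors that give cells along the body axis their positional identity. Within a cluster the genes lie in the order of their paralog numbers, and genes with low numbers are used from the hindbrain downward while those with high numbers are used only toward the tail. Spinal levels and their ganglia keep such a code into adult life, and genes near the posterior limit of a region are used at some of its levels and not at others.

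Facts that touch the whole data set were as follows. The 16 pan-neuronal genes checked summed to between 15999.8 and 20297 FPKM in the 14 samples, and none of them was at 0 in any sample, as in tissue that holds sensory neurons. On days 7 and 14 the 12 macrophage genes summed to between 513.91 and 1804.65 FPKM against 66.61 to 128.51 in sham, and the 8 T cell genes to between 33.65 and 98.85 against 5.68 to 8.48. In day 7 sample 3 the 13 skeletal muscle fiber genes summed to 24723 FPKM and the pan-neuronal genes to 11634, while the muscle sum was 615 in sham sample 4 and between 10.24 and 24.3 in the other 14 samples. In RNA from a whole ganglion, fewer cells of a type and less RNA per cell cannot be told apart.

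The 3 promoters of Hoxd9, Hoxd10 and Hoxd11 are shown because these neighbors lie at the posterior limit of the code and the last pair varied together between samples. They cover 250 bases before to 50 bases after the annotated start in RefSeq, on the plus strand of chromosome 3 in assembly GRCr8, at chr3:80007756-80008055 for Hoxd9, chr3:80001697-80001996 for Hoxd10 and chr3:79992144-79992443 for Hoxd11. Capitals mark matches on either strand to CCAAT, the CCAAT box core, or to TGATTNAT, a site for a HOX protein bound together with its cofactor PBX.
Hoxd9: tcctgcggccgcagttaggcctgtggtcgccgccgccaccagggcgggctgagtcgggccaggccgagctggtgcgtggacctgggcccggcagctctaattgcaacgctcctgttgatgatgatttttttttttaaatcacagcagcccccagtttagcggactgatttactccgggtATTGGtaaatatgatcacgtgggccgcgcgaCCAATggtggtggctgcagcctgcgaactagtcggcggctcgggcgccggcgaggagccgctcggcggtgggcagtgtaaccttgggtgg
Hoxd10: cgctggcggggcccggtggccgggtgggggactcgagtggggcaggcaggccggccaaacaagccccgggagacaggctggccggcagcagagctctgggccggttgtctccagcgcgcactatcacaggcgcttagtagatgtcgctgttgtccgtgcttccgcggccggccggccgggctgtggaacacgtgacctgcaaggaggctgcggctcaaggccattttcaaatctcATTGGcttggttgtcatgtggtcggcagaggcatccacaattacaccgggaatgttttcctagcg
Hoxd11: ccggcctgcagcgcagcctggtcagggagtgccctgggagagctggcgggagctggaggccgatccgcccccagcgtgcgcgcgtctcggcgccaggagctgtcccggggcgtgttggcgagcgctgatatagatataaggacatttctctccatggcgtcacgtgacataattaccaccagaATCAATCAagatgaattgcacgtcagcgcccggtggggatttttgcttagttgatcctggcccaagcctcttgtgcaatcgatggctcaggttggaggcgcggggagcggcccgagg
The 3 windows were rich in CpG, with 27, 24 and 25 CpG dinucleotides for Hoxd9, Hoxd10 and Hoxd11, against a median of 7 over all 33469 promoters of the table. CCAAT occurred in the windows of Hoxd9 and Hoxd10 and in 37.5% of all promoters, and TGATTNAT in that of Hoxd11 and in 3.18%. TATAAA, the core of the TATA box, was in none of the 3 and in 14.2% of all promoters, and TTTATNG, a site of posterior HOX proteins, was in none of the 3 and in 11.3%. These matches describe the letters in the windows, and no binding was measured.

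Summed over the entries of a paralog group, expression was highest at group 9 and fell steeply after group 10. Groups 7, 8, 9 and 10 have 2, 3, 4 and 3 entries, so that the sums depend on the number of genes as well. Over the 14 samples, the mean FPKM summed over all entries of a group was 15.3 for group 7, 26.3 for group 8, 32.4 for group 9, 16.2 for group 10, 1.49 for group 11, and 0.0171 and 0.0264 for groups 12 and 13. As a share of all Hox FPKM in a sample, paralog groups 4 to 8 had between 43.8% and 48.2%, group 9 between 21.5% and 25.6%, and group 10 between 10.6% and 12.4%. Group 11 had between 0.127% and 1.98%, the widest range relative to its size among the groups that were clearly detected. The 4 genes of group 9 all had a mean of at least 4.95 FPKM.

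**Figure D1:**
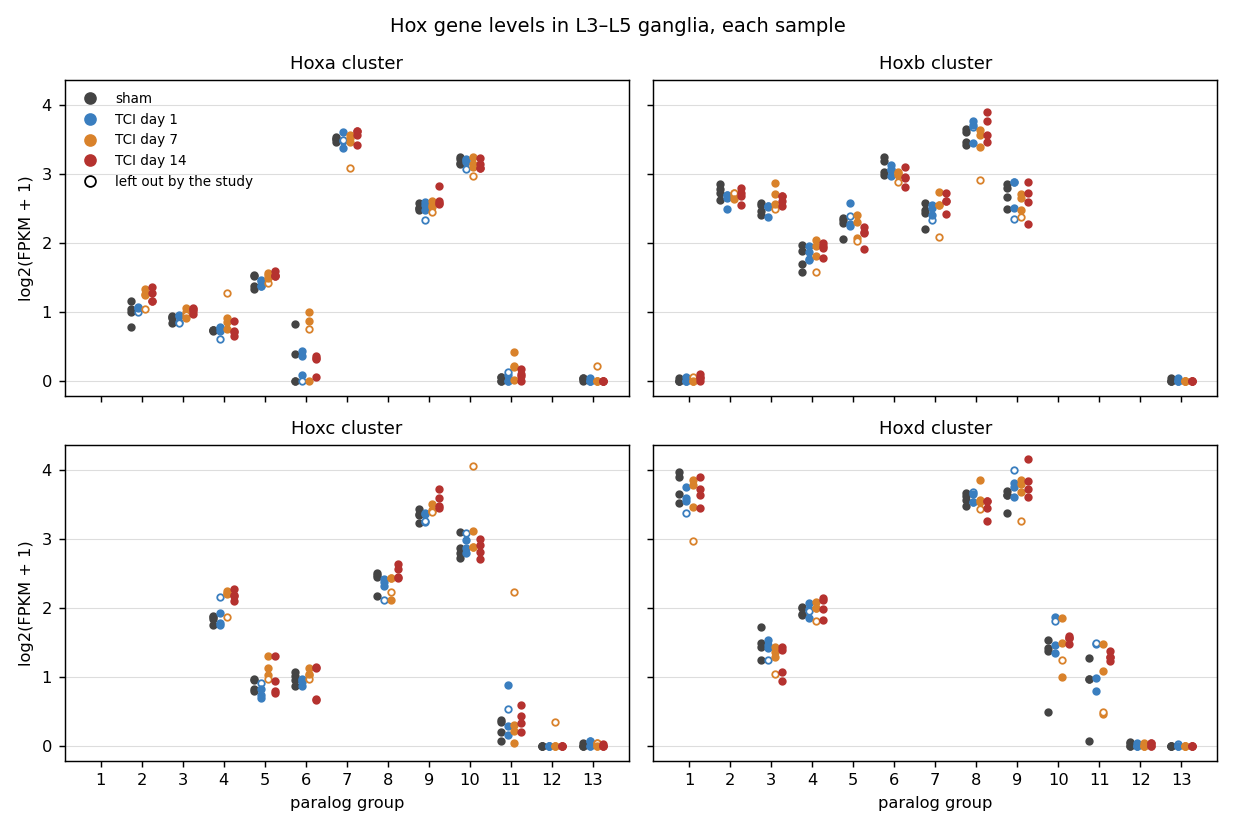
Levels of the Hox genes reported here on a log2(FPKM + 1) scale, by paralog group on the horizontal axis and by cluster in the 4 panels; each point is 1 sample, colored by group, with the samples left out by the study as open points and the 2 entries of Hoxa2 summed. Levels peak between groups 7 and 10 in each cluster, and in cluster D also at Hoxd1, and are near 0 from group 12 on.

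The 8 genes with the highest mean were Hoxd9, Hoxd1, Hoxb8, Hoxd8, Hoxa7, Hoxc9, Hoxa10 and Hoxb6, and 6 of them belong to paralog groups 7 to 10. Hoxd9 was at 11.4, 9.41, 11.4 and 11.9 FPKM in the sham samples, at 12.5, 13.1 and 11.2 on day 1, at 11.8, 12.8 and 13.4 on day 7 and at 12.2, 11.2, 16.8 and 13.3 on day 14, with 15.0 and 8.58 in the left-out samples of days 1 and 7. Its highest value was in day 14 sample 3 and its lowest among the 14 in sham sample 2, and the ranges of all groups overlapped. Hoxc9 was at 9.29, 8.39, 9.18 and 9.83 FPKM in the sham samples, at 8.50, 9.31 and 9.38 on day 1, at 9.70, 9.55 and 10.4 on day 7 and at 9.92, 10.1, 12.2 and 11.03 on day 14, with 8.55 and 9.47 in the left-out samples of days 1 and 7. On day 14 all 4 values were above the highest of sham, by little for 2 of them. Hoxa10 was at 8.50, 7.83, 7.96 and 8.27 FPKM in the sham samples, at 8.26, 8.20 and 8 on day 1, at 7.86, 7.57 and 8.51 on day 7 and at 7.54, 7.54, 8.41 and 7.85 on day 14, with 7.38 and 6.88 in the left-out samples of days 1 and 7. Its highest value over the 14 samples was 1.13 times its lowest, the smallest such ratio among the 26 tested Hox genes.

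Hoxb8 was at 11.2, 9.65, 11.6 and 9.99 FPKM in the sham samples, at 9.92, 12.03 and 12.6 on day 1, at 11.4, 10.9 and 9.46 on day 7 and at 10.01, 10.9, 13.9 and 12.6 on day 14, with 11.8 and 6.50 in the left-out samples of days 1 and 7. Hoxd8 was at 10.8, 10.2, 11.3 and 11.7 FPKM in the sham samples, at 10.6, 10.6 and 11.5 on day 1, at 10.6, 10.9 and 13.4 on day 7 and at 9.96, 8.54, 10.7 and 10.7 on day 14, with 11.8 and 9.81 in the left-out samples of days 1 and 7. Hoxa7 was at 10.1, 10.3, 10.5 and 10.4 FPKM in the sham samples, at 10.2, 11.1 and 9.39 on day 1, at 10.5, 10.1 and 10.9 on day 7 and at 10.8, 11.3, 11.3 and 9.75 on day 14, with 10.3 and 7.47 in the left-out samples of days 1 and 7. For each of these the groups overlapped, and Hoxb8 and Hoxa7 were lowest in the left-out sample of day 7. Hoxb6 was at 6.95, 7.17, 8.10 and 8.47 FPKM in the sham samples, at 6.84, 7.31 and 7.80 on day 1, at 6.96, 7.17 and 7.08 on day 7 and at 6.70, 6.03, 6.74 and 7.56 on day 14, with 7.45 and 6.41 in the left-out samples of days 1 and 7. Of the 4 values of day 14, 3 were below the lowest of sham.

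Hoxd1 stood apart from the order of the code, as a gene of paralog group 1 with the second highest mean of all Hox genes. Hoxd1 was at 11.6, 14.7, 10.5 and 13.8 FPKM in the sham samples, at 11.1, 12.4 and 10.7 on day 1, at 10.1, 12.7 and 13.4 on day 7 and at 11.4, 9.87, 13.9 and 12.2 on day 14, with 9.39 and 6.85 in the left-out samples of days 1 and 7. The groups overlapped throughout. Other anterior genes were lower, with Hoxb1 at 0.08 FPKM or less in all 16 samples. Hoxb2, which acts in the hindbrain during development, was between 4.65 and 6.27 FPKM and Hoxb3 between 4.21 and 6.32.

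The remaining genes of groups 2 to 9 had low to moderate levels, given here as ranges over all 16 samples. In cluster A, Hoxa2 was between 0 and 0.91 FPKM under one identifier and between 0.29 and 1.43 under the other, Hoxa3 between 0.79 and 1.09, Hoxa4 between 0.53 and 1.42, Hoxa5 between 1.53 and 2.03, Hoxa6 between 0 and 1.01 and Hoxa9 between 4.06 and 6.12. In cluster B, Hoxb4 was between 2 and 3.12, Hoxb5 between 2.78 and 4.98, Hoxb7 between 3.27 and 5.71 and Hoxb9 between 3.85 and 6.4. Hoxa6 was irregular within groups, at 0 in sham samples 1 and 2 and at 0.78 FPKM in sham sample 3. In RefSeq the annotated Hoxa3 overlaps Hoxa4, Hoxa5 and Hoxa6, so that reads could have been divided among them by the estimation of expression, and Hoxc6 overlaps Hoxc4 and Hoxc5. In clusters C and D, Hoxc5 was between 0.62 and 1.47 FPKM, Hoxc6 between 0.59 and 1.22, Hoxc8 between 3.36 and 5.20, Hoxd3 between 0.92 and 2.32 and Hoxd4 between 2.50 and 3.44.

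Genes of paralog groups 12 and 13, which pattern the tail end of the body, the genitalia and the ends of the limbs, were at or near 0. Hoxa13 reached 0.17 FPKM, Hoxb13 0.03, Hoxc12 0.28, Hoxc13 0.06, Hoxd12 0.05 and Hoxd13 0.02 at most. The highest values of Hoxa13 and Hoxc12 were both in day 7 sample 3, in which the muscle genes were high, and Hoxc12 was at 0 in all other samples. Hoxa11 was at 0.34 FPKM or less in every sample. Pitx1, Tbx4 and Tbx5, which mark limb tissue and were checked beside them, summed to at most 0.37 FPKM over the 14 samples.

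Hoxd10 and Hoxd11 lie at the posterior limit of the code in cluster D. On the log2(FPKM + 1) scale they varied more between samples of the same group than the other tested Hox genes. Hoxd10 was at 1.68, 0.41, 1.61 and 1.92 FPKM in the sham samples, at 2.65, 1.77 and 1.55 on day 1, at 1.01, 1.83 and 2.64 on day 7 and at 1.96, 1.79, 2.04 and 1.97 on day 14, with 2.50 and 1.39 in the left-out samples of days 1 and 7. Hoxd11 was at 0.96, 0.06, 0.96 and 1.43 FPKM in the sham samples, at 1.79, 0.99 and 0.75 on day 1, at 0.39, 1.14 and 1.80 on day 7 and at 1.46, 1.35, 1.6 and 1.45 on day 14, with 1.81 and 0.41 in the left-out samples of days 1 and 7. Sham sample 2 was the lowest of all samples for both genes, and day 7 sample 1 was the second lowest among the 14, while the 4 samples of day 14 lay close together. The residual SD within groups was 2.22 times the limma trend at this expression level for Hoxd10 and 2.27 times for Hoxd11, the largest among the 26 tested Hox genes. These ratios stood at percentiles 89.3 and 89.8 of all tested genes, so that about 1 gene in 10 of the whole table varied as much or more. The median ratio was 0.924 for the Hox genes and 1.09 for all genes, and 46.2% of the Hox genes against 56.8% of all genes varied more than the trend.

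The pair varied together from sample to sample. Deviations of log2(FPKM + 1) from the group means had a Pearson r of 0.991 between Hoxd10 and Hoxd11 over the 14 samples (permutation within groups, p = 0.00019, adjusted p = 0.00855 over 45 pairs of Hox genes) and a Spearman rho of 0.990 (permutation, p = 0.00041, adjusted p = 0.0184). Without sham sample 2 and day 7 sample 1, the samples farthest from the median of Hoxd10, r was 0.981, and over all 16 samples it was 0.972. No other of the 45 pairs of neighbors or paralogs passed an adjusted p of 0.05, with 6 pairs in all at an unadjusted p under 0.05. Hoxd9, the next neighbor, had an r of 0.588 with Hoxd10 (permutation, p = 0.00304, adjusted p = 0.0684) and a rho of 0.670 (permutation, p = 0.0101, adjusted p = 0.131), and without the 2 samples farthest for Hoxd9, both of day 14, r was 0.831. Hoxc9 and Hoxc10 had an r of 0.776 (permutation, p = 0.00656, adjusted p = 0.0984) and a rho of 0.763 (permutation, p = 0.00799, adjusted p = 0.131), with r at 0.770 without their 2 farthest samples and at 0.125 over all 16. Of the 6 pairs, Hoxa5 with Hoxa7 went the other way, at an r of -0.512 (permutation, p = 0.0142, adjusted p = 0.127). The paralogs Hoxc9 and Hoxd9 had an r of 0.799 (permutation, p = 0.0105, adjusted p = 0.119). Hoxa3 and Hoxb3 had one of 0.734 (permutation, p = 0.0283, adjusted p = 0.212). Among all 14022 other tested genes, Hoxd10 was the one most like Hoxd11 by this r, ahead of Sri at 0.921 over the same 14 samples.

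The ratio of Hoxd10 to Hoxd9 was 0.0436 in sham sample 2 and 0.0859 in day 7 sample 1, and lay between 0.121 and 0.213 in the other 12. That of Hoxd11 to Hoxd10 was 0.146 and 0.386 in the same samples, and between 0.484 and 0.784 in the others. On day 14 the second ratio had a narrow range, from 0.736 to 0.784, above all but 1 sham sample, which was at 0.745. Hoxd9 itself was 9.41 FPKM in sham sample 2, its lowest among the 14, and 11.8 in day 7 sample 1. The muscle sums in these samples were 10.29 and 12.09 FPKM and the pan-neuronal sums 19384 and 16255, within the ranges of the other samples.

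**Figure D2:**
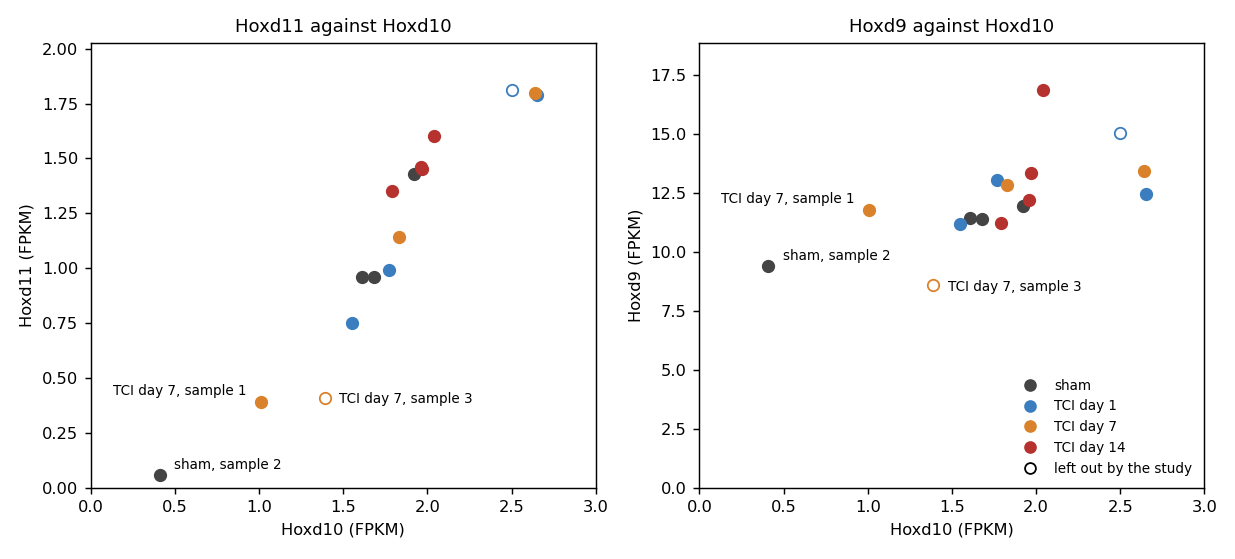
Hoxd11 (left) and Hoxd9 (right) in FPKM against Hoxd10 in FPKM in each of the 16 samples, colored by group, with the samples left out by the study as open points. Hoxd11 follows Hoxd10 from 0.06 FPKM in sham sample 2 to 1.81 in the left-out sample of day 1, while Hoxd9 stays between 8.58 and 16.8.

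The other genes of groups 10 and 11 behaved differently. Hoxc10 was at 5.60, 5.95, 6.29 and 7.60 FPKM in the sham samples, at 5.93, 6.32 and 6.95 on day 1, at 6.42, 6.39 and 7.65 on day 7 and at 6, 5.55, 6.98 and 6.55 on day 14, with 7.51 and 15.6 in the left-out samples of days 1 and 7. Among the 14 samples its highest values were in day 7 sample 4 and in sham sample 4, the sample with 615 FPKM of muscle genes. Hoxc11 was at 0.15, 0.06, 0.28 and 0.30 FPKM in the sham samples, at 0.85, 0.12 and 0.23 on day 1, at 0.04, 0.17 and 0.24 on day 7 and at 0.15, 0.35, 0.51 and 0.27 on day 14, with 0.45 and 3.71 in the left-out samples of days 1 and 7. Day 7 sample 3 thus had more than 4 times the next highest level of Hoxc11, which was 0.85 FPKM in day 1 sample 1. In that sample Hoxc10 exceeded Hoxc9 by a ratio of 1.65, against 0.549 to 0.773 in the 14 samples and 0.878 in the left-out sample of day 1. Hoxa10, Hoxd10 and Hoxd11 were not raised in it. The part of the muscle RNA in these levels was not tested. Over all 16 samples, with day 7 sample 3 among them, the gene most like Hoxc10 by the r within groups was Hacd1 at 0.965. Hddc3 at 0.961, Pla2g12a at 0.956 and Ak1 at 0.954 came next. Over the 14 samples none of these was among the 6 genes most like Hoxc10, and Csnk1g2 led at 0.926.

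**Figure D3:**
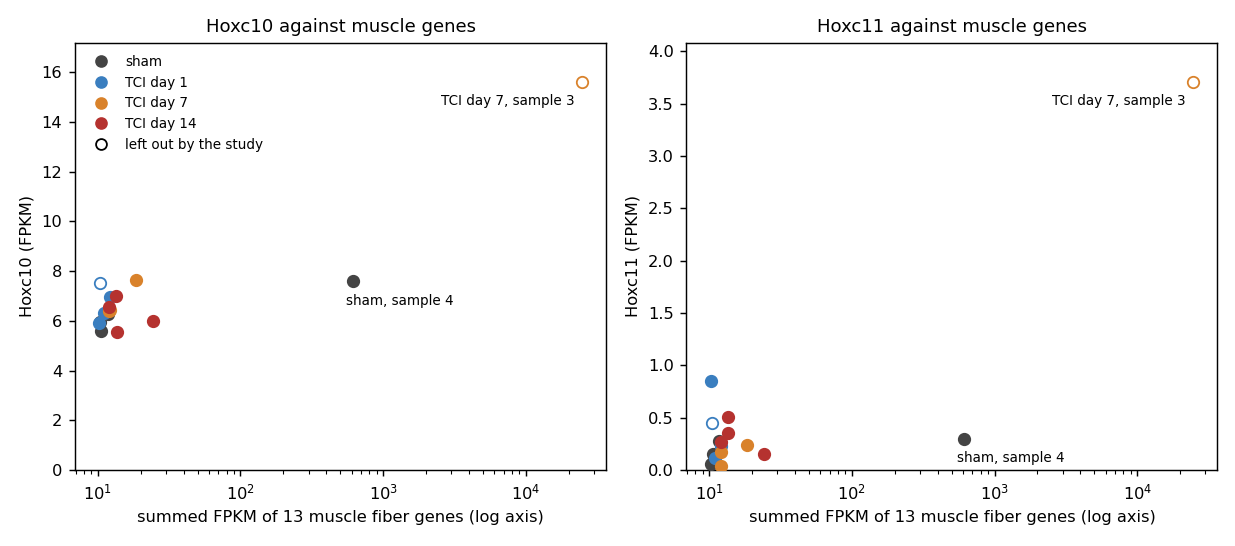
Hoxc10 (left) and Hoxc11 (right) in FPKM against the summed FPKM of 13 skeletal muscle fiber genes on a log axis, in each of the 16 samples, with the samples left out by the study as open points. Day 7 sample 3, at 24723 FPKM of muscle genes, has the highest level of both, and sham sample 4, at 615, lies within the range of the others.

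The share of Hox FPKM that came from paralog groups 10 to 13 was computed for each sample. In the sham samples this share was 12.5%, 10.8%, 12.4% and 13.3%, and on day 14 it was 12.4%, 12.6%, 12.4% and 11.9%. On day 1 it was 14.3%, 12.1% and 12.5%, with 14.1% in the left-out sample, and on day 7 it was 11.4%, 11.8% and 13.9%, with 22.3% in the left-out sample. In that sample, with its 24723 FPKM of muscle genes, Hoxc10 at 15.6 and Hoxc11 at 3.71 FPKM were the highest of all samples while Hoxa10, Hoxd10 and Hoxd11 were not raised. The group medians over the 14 samples were 12.4%, 12.5%, 11.8% and 12.4% for sham and days 1, 7 and 14, and the ranges of all 4 groups overlapped. The SD within a group was between 0.263 and 1.34 percentage points. The summed Hox FPKM was 139 ± 5.61 (SD, n = 4) in sham, 141 ± 3.70 (n = 3) on day 1, 146 ± 4.84 (n = 3) on day 7 and 146 ± 11.9 (n = 4) on day 14, so that the means lay within the spread of the samples.

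No Hox gene was called on any day in limma at the limits that the study set, which are 1 for the size of the log2 fold change and 0.001 for the adjusted p. In limma the share of all tested genes called was 0% on day 1, 1.83% on day 7 and, for day 14, 0.642%. The study applied its limits to a different test and reported more genes on each day than were called here. The lack of Hox calls therefore holds for limma only. Whether any Hox gene was among the genes that the study called was not examined. With an adjusted p of at most 0.05 and no limit on the fold change, 0 Hox genes passed on day 1 (0% of all genes), 1 on day 7 (17.9% of all genes) and 2 on day 14 (15.1% of all genes). At an unadjusted p under 0.05 there were 0, 2 and 5 of the 26, where the share of all genes was 5.23%, 31.2% and 29.9%. In the F test over the 4 groups, 1 Hox gene had an adjusted p of at most 0.05 (16.5% of all genes) and 3 had an unadjusted p under 0.05 (30.1% of all genes).

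The log2 fold changes of the 26 genes, which on a log2(FPKM + 1) scale understate the change of low genes, were small. They ran from -0.14 to 0.35 on day 1, from -0.11 to 0.38 on day 7 and from -0.27 to 0.47 on day 14, with medians of 0.00, 0.08 and 0.08, where the medians over all tested genes were 0.00, 0.04 and 0.03. Over the 14 samples the largest was that of Hoxc4 on day 7 and of Hoxd11 on day 14. Hoxd10 had a log2 fold change of 0.25 (SE 0.24) on day 7 and of 0.34 (SE 0.22, limma adjusted p = 0.332) on day 14, and Hoxd11 one of 0.19 (SE 0.27) and of 0.47 (SE 0.25, limma adjusted p = 0.233). The low value of sham sample 2 enters each of these. Without it the log2 fold change of Hoxd10 was 0.0066 on day 7 and 0.10 on day 14, and that of Hoxd11 was -0.05 and 0.23, below the 0.36 of Hoxc4 on day 14.

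**Figure D4:**
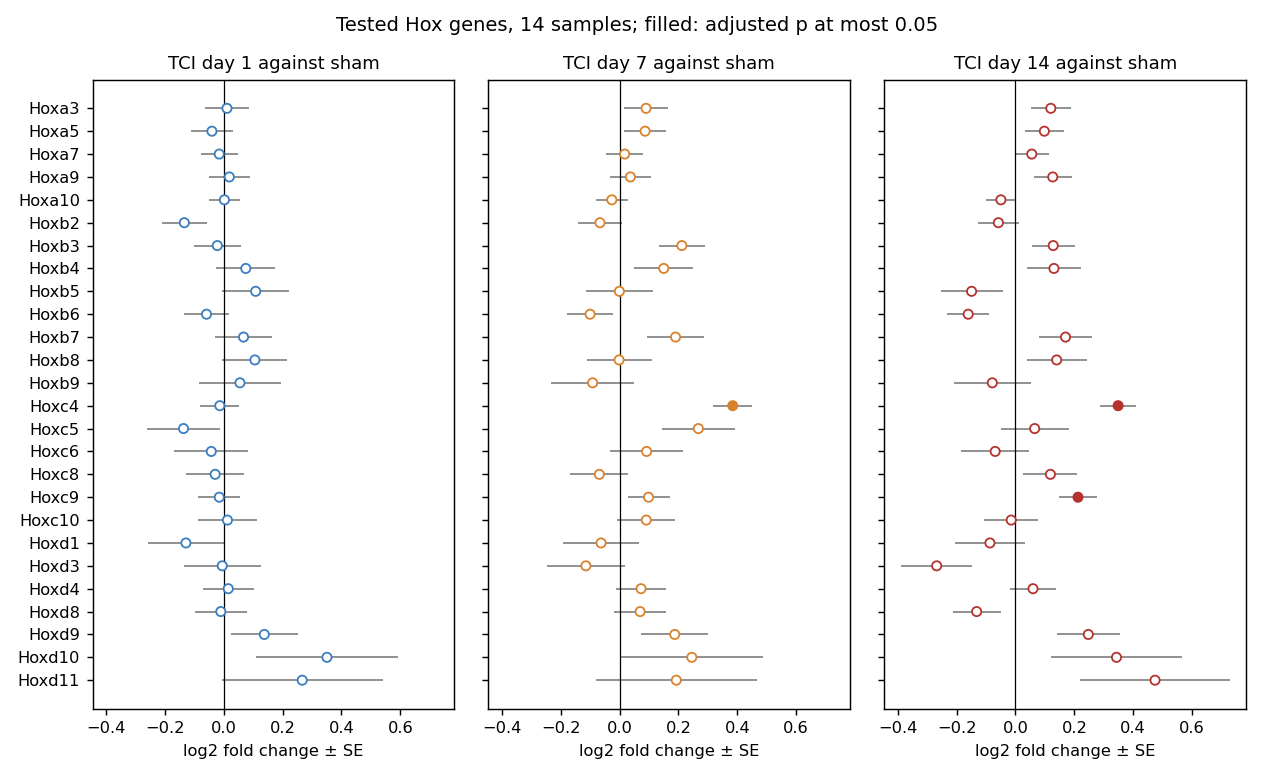
Log2 fold changes of log2(FPKM + 1) with their SE from limma for the 26 tested Hox genes, by day against sham over the 14 samples; filled points have an adjusted p of at most 0.05. On day 1 none is filled, on day 7 only Hoxc4, and on day 14 Hoxc4 and Hoxc9, and the widest SE are those of Hoxd10 and Hoxd11.

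Hoxc4, an anterior gene of its cluster, was the Hox gene that rose on both days 7 and 14. Hoxc4 was at 2.59, 2.65, 2.70 and 2.38 FPKM in the sham samples, at 2.46, 2.39 and 2.80 on day 1, at 3.66, 3.60 and 3.75 on day 7 and at 3.86, 3.52, 3.29 and 3.57 on day 14, with 3.47 and 2.67 in the left-out samples of days 1 and 7. All values of days 7 and 14 in the 14 samples were above all of those of sham and day 1, whereas both left-out samples went the other way, the sample of day 1 lying with the later days and that of day 7 within the sham range. The log2 fold change was 0.38 (SE 0.07, limma adjusted p = 0.00160) on day 7 and 0.35 (SE 0.06, adjusted p = 0.00296) on day 14, and -0.01 on day 1. Over all 16 samples it was 0.30 (adjusted p = 0.0454) on day 7 and 0.35 (adjusted p = 0.0356) on day 14. Under quantile normalization the log2 fold change on day 7 was 0.18 (limma adjusted p = 0.0693), no longer past the threshold of 0.05, and over the 25 alternatives run for each day the adjusted p ranged from 0.000771 to 0.0693 on day 7 and from 0.00156 to 0.0356 on day 14. In FPKM the means were 2.58 ± 0.141 (SD, n = 4) in sham, 2.55 ± 0.219 (n = 3) on day 1, 3.67 ± 0.0755 (n = 3) on day 7 and 3.56 ± 0.234 (n = 4) on day 14.

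The rise of Hoxc4 came with that of immune cell genes and some fibroblast genes. On day 7, 12 of 12 macrophage genes and 7 of 7 tested T cell genes passed an adjusted p of 0.05 upward in limma, and on day 14, 10 of 12 and 7 of 7. Among all tested genes, 17.9% and 15.1% passed in either direction on these days. Of 8 fibroblast genes 4 rose and 1 fell on day 7, and 2 rose and 1 fell on day 14, and they summed to between 598 and 735 FPKM in sham, between 771 and 961 on day 1, between 1105 and 1324 in the kept samples of day 7 and between 429 and 1090.5 on day 14, with 969 in the left-out sample of day 7. Their part in the level of Hoxc4 was not tested. In the left-out sample of day 7 the macrophage sum was 815 FPKM and the T cell sum 26.9, with Hoxc4 at 2.67, and in that of day 1 they were 107 and 7.79, with Hoxc4 at 3.47. The direct neighbor Hoxc5 had a log2 fold change of 0.27 (SE 0.12, limma adjusted p = 0.162) on day 7 and of 0.07 (SE 0.12, adjusted p = 0.747) on day 14.

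Hoxc9 was the other gene that rose, on day 14, when its log2 fold change was 0.21 (SE 0.07, limma adjusted p = 0.0471) after 0.10 (SE 0.07, adjusted p = 0.385) on day 7. The adjusted p lies at the threshold, and it was 0.0596 over all 16 samples. The values of day 14 that exceeded the sham range most were those of samples 3 and 4. Without sample 3 the log2 fold change was 0.16 (adjusted p = 0.0892), and without sham sample 2 it was 0.17 (adjusted p = 0.136). Of the 26 alternatives run, 11 kept an adjusted p of at most 0.05, within a range from 0.000885 to 0.220.

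**Figure D5:**
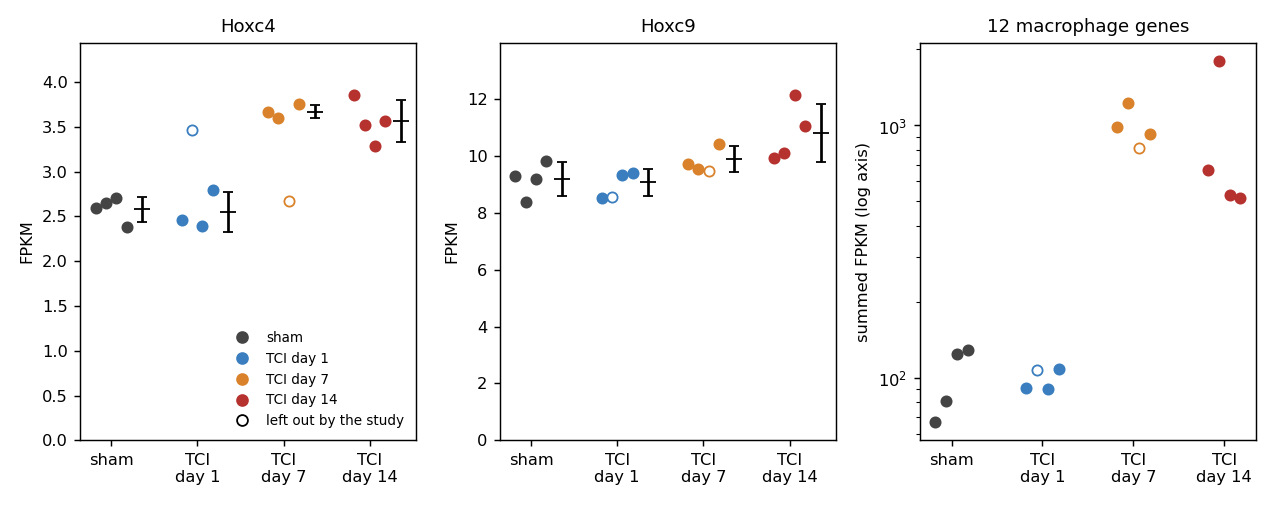
Hoxc4 and Hoxc9 in FPKM and the summed FPKM of 12 macrophage genes (log axis) in each sample by group; bars give the mean ± SD over the samples kept, and open points are the samples left out by the study. Hoxc4 is between 2.38 and 2.80 FPKM in the kept samples of sham and day 1 and between 3.29 and 3.86 on days 7 and 14, and the open points cross this gap.

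The other genes of groups 9 and 10 did not pass. Hoxd9 had a log2 fold change of 0.19 (SE 0.11, limma adjusted p = 0.290) on day 7 and of 0.25 (SE 0.11, adjusted p = 0.136) on day 14, Hoxa9 of 0.04 (SE 0.07) and 0.13 (SE 0.06, adjusted p = 0.205), and Hoxb9 of -0.09 (SE 0.14) and -0.08 (SE 0.13, adjusted p = 0.728). Hoxa10 was at -0.03 (SE 0.05) and -0.05 (SE 0.05, adjusted p = 0.547) and Hoxc10 at 0.09 (SE 0.10) and -0.01 (SE 0.09, adjusted p = 0.938). Of the other genes with the smallest p in the F test, Hoxb3 (limma adjusted p = 0.145 over the groups) had 0.21 (SE 0.08, adjusted p = 0.0835) on day 7 and 0.13 (SE 0.07, adjusted p = 0.263) on day 14, and Hoxd3 (limma adjusted p = 0.343 over the groups) had -0.11 (SE 0.13, adjusted p = 0.604) and -0.27 (SE 0.12, adjusted p = 0.159).

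The direction of small fold changes depended on what they were scaled to. FPKM are relative to all RNA of a sample, in which immune cell genes took a larger share on days 7 and 14. On each of these days 5 of the 16 pan-neuronal genes fell (limma, adjusted p at most 0.05). Of all tested genes, 17.9% and 15.1% passed in either direction. When each sample was set relative to its mean over the pan-neuronal list, the log2 fold change of all 26 Hox genes was above 0 on day 7 and that of 22 on day 14, and 13 and 8 of them passed an adjusted p of 0.05. On this scale 44.4% and 32.4% of all tested genes passed as well, and the median of all genes moved to 0.22 and 0.15, so that the Hox medians of 0.25 and 0.21 lay little above it. Under quantile normalization the median of all genes on day 7 was -0.07, that of the Hox genes -0.11, and 7 of the 26 were above 0.

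Cofactors of the TALE homeodomain class, which bind DNA together with HOX proteins, were led by Pbx2, Pknox2 and Meis3. Pbx2 was between 17.6 and 20.2 FPKM in sham and between 18.7 and 21.6 on day 14, and its log2 fold change on day 14 was 0.15 (SE 0.05, limma adjusted p = 0.0698). Pknox2 was between 13.7 and 15.3 FPKM in sham and between 14.1 and 15.8 on day 14. Meis3 was between 10.45 and 11.19 FPKM in sham and between 11.93 and 15.68 on day 14, with a log2 fold change of 0.24 (SE 0.07, adjusted p = 0.0434), and it was the only one of 11 tested cofactors to pass an adjusted p of 0.05 on any day. That made 0% of the 11 on day 7 and 9.09% on day 14, where 17.9% and 15.1% of all genes passed. The median log2 fold change of the 11 was 0.00, 0.01 and 0.07 on days 1, 7 and 14.

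Of 31 genes known to set or keep Hox expression, 27 were tested. In limma at an adjusted p of 0.05, 0 passed on day 1, 3 rose on day 7, and 5 rose and 1 fell on day 14. These were 11.1% and 22.2% of the 27, where 17.9% and 15.1% of all genes passed. Cbx7, a subunit of the Polycomb complex that keeps Hox genes silent, was between 12.4 and 13.9 FPKM in sham and between 15.96 and 19.25 in the kept samples of day 7, with log2 fold changes of 0.39 (SE 0.07, adjusted p = 0.00175) on day 7 and 0.30 (SE 0.06, adjusted p = 0.00817) on day 14. Phc1, of the same complex, had 0.21 (SE 0.06, adjusted p = 0.0261) and 0.25 (SE 0.06, adjusted p = 0.00866). Kmt2b, a methyltransferase of the activating mark on histone H3, had 0.19 (SE 0.08, adjusted p = 0.138) and 0.38 (SE 0.08, adjusted p = 0.00590). Gdf11, a secreted factor that sets the trunk to tail transition in the embryo, had -0.22 (SE 0.09, adjusted p = 0.131) and -0.39 (SE 0.09, adjusted p = 0.0104).

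Of 10 tested genes that lie within or beside the clusters on the chromosome, 2 rose on both days 7 and 14, a share of 20% where 17.9% and 15.1% of all genes passed. Skap2, which flanks the anterior end of cluster A and encodes an adaptor protein of immune cells, was between 3.61 and 5.85 FPKM in sham and between 8.90 and 11.8 in the kept samples of day 7, with log2 fold changes of 1.04 (SE 0.19, limma adjusted p = 0.00262) on day 7 and 0.68 (SE 0.18, adjusted p = 0.0227) on day 14. Skap1, beside cluster B and an adaptor of T cells, was between 0.30 and 0.76 FPKM in sham and between 0.98 and 3.21 in the kept samples of day 7, with 0.70 in the left-out sample and log2 fold changes of 0.91 (SE 0.24, adjusted p = 0.0200) and 0.75 (SE 0.23, adjusted p = 0.0394). The other 8 did not pass on either day. The macrophage and T cell sums rose on the same days, and their part was not tested. No tested gene of clusters A and B passed on either day.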

How the data were processed

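Whole-tissue RNA of 16 samples was sequenced by the study. The authors cleaned the reads, mapped them with HISAT and Bowtie2, estimated expression with RSEM and deposited FPKM values per gene, rounded to 2 decimals, in 1 table per sample. The submitters' processing notes name CASAVA 1.4 and Bowtie2, and the genome build is not given in the sources used here. The study reports clean reads and mapping rates, but FPKM tables hold no read totals, so no counting error was computed. The smallest values of 9 genes put the relative depth of the samples between 0.909 and 1.22. This is a rough estimate, since it rests on between 1 and 5 values per sample.

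The deposited FPKM were taken as log2(FPKM + 1) in Python 3.11.15. Genes reaching 1 FPKM in 3 or more of the 14 samples entered 1 limma model over the 4 groups (limma 3.58.1, R 4.3.3, eBayes with trend, Benjamini-Hochberg adjustment), which was tested on simulated data. The limma p-values set the difference of group means against the spread between rats within groups. In eBayes this spread is drawn toward its trend over all genes. Pairs of Hox genes were compared by 100000 two-sided permutations within groups. Identifiers were matched to RefSeq GRCr8 (37 of 41 Hox entries), and promoter sequences are those of RefSeq. Figures were drawn with matplotlib 3.10.9.

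The members and lists were chosen with earlier results of these data known. The levels of 1 Hox gene, which counts and sums include, are not reported here. Levels in every sample are given for Hox genes of groups 10 to 13 reaching 1 FPKM and for the 8 with the highest means, and fold changes with tests on days 7 and 14 for tested genes of groups 9 to 13 and the 4 others with the smallest F test p. Of the lists, cofactors with a mean of at least 10 FPKM and the 6 others with the smallest F test p are named. Hoxd10, Hoxd11 and Hoxc10 were compared with all genes after their values were seen. Alternatives were all 16 samples, only the groups compared, no trend, 3 other scalings, other filters, a pseudocount of 0.1, the looser threshold, a replicate block and each sample left out. Added after seeing the data were summed entries of symbols listed more than once, all 16 samples and each sample left out for pairs of Hox genes, and the 14 samples other than sham sample 4 and day 7 sample 3. At most 2.78% of values were identical in any pair of samples, so none was taken for a copy.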

Additional observations from a re-analysis of the deposited data

Results flagged for a closer look

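A sample far from the other 3 of its group was found in 2 of 52 groups of 4 examined, for 12 Hox genes and the posterior share, where chance gives about 1 in 20. Hoxd10 at 0.41 FPKM in sham sample 2 was below the other sham samples, and Hoxc11 at 3.71 FPKM in day 7 sample 3 was above the other samples of that day. Between days, Hoxc4 differed by a log2 fold change of 0.40 (SE 0.07, limma adjusted p = 0.00323) for day 7 minus day 1 and of 0.36 (SE 0.07, adjusted p = 0.00765) for day 14 minus day 1, and these were the only ones of 78 such tests of Hox genes to pass an adjusted p of 0.05. Both rest on the 3 kept samples of day 1, from which the left-out sample, at 3.47 FPKM of Hoxc4, differed. The share of all genes that passed in these comparisons between days was not computed.

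In the samples that the study left out, 3 Hox genes had at least 1 FPKM and at least 2 times their highest sham value, all in day 7 sample 3. They were Hoxc10 at 15.6 FPKM, Hoxc11 at 3.71 FPKM and Hoxa4 at 1.42 FPKM. The muscle fiber genes of this sample summed to 24723 FPKM. The share of all genes that met both limits in this sample was not computed.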

How the results depend on the processing

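Under each alternative run at a log2 limit of 1 and an adjusted p of 0.001, limma called 0 Hox genes on any day. With an adjusted p of at most 0.05 alone the counts in the main setting were 0, 1 and 2 on days 1, 7 and 14. Over the 4 groups the count of 1 became 2 under quantile normalization and 7 relative to the pan-neuronal list. It became 0 with a mean of at least 5 FPKM, where Hoxc4 is not tested. It was 2 in the 14 samples other than sham sample 4 and day 7 sample 3, which also bring back day 1 sample 2. Without sham sample 4 alone it was 1. The share of all genes passing this F test was computed for the main setting only, at 16.5%. On the pan-neuronal scale 44.4% and 32.4% of all tested genes passed an adjusted p of 0.05 in limma on days 7 and 14 against sham. The labels do not say that sample numbers pair the rats. Deviations of same-numbered rats had an r between -0.10 and 0.27 over 18 pairs, against -0.33 to 0.41 over 55 pairs of other numbers. So few pairs cannot exclude a weak pairing. With the replicate block the count over the groups was 2. Over all genes the block left 112 calls on day 7 and 19 on day 14 at the study's thresholds, against 257 and 90. Over all genes, 0, 2717 and 1389 of 14087 passed an adjusted p of 0.05 in limma on days 1, 7 and 14 with all 16 samples. The main setting gave 0, 2512 and 2120 of 14023. With all 16 samples the counts of Hox genes at an adjusted p of at most 0.05 were 0, 1 and 1, since Hoxc9 lost its call on day 14 (adjusted p = 0.0596). That call also ended with only sham and day 14 (0.117), under quantile normalization (0.208) and median centring (0.220), without the filter (0.0632) and in 10 of 14 cases with 1 sample left out, where the log2 fold change was between 0.16 and 0.25. Hoxc4 lost its call on day 7 under quantile normalization (adjusted p = 0.0693) and kept it in all cases with 1 sample left out.

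Signs turned for genes that were not called. Relative to the pan-neuronal list, the log2 fold changes on days 7 and 14 became 0.15 and 0.080 for Hoxa10 and 0.082 and 0.051 for Hoxb9, and 0.059 on day 7 for Hoxd3 and 0.11 on day 14 for Hoxc10. Hoxa10 on day 7 then had an adjusted p of 0.0463. Under quantile normalization and median centring they became -0.13 and -0.072 for Hoxa9, -0.045 and -0.019 for Hoxc10 and -0.010 and -0.011 for Hoxc9 on day 7, and -0.092 and -0.0041 for Hoxc5 on day 14. In the 14 samples other than sham sample 4 and day 7 sample 3, Hoxc10 was at 0.063 on day 14. With 1 sample left out, values ranged from -0.068 to 0.0068 for Hoxa10 and from -0.055 to 0.46 for Hoxd11 on day 7, and from -0.17 to 0.037 for Hoxb9, from -0.064 to 0.063 for Hoxc10 and from -0.051 to 0.13 for Hoxc5 on day 14. The cause of these changes was not tested. The correlation of Hoxd10 with Hoxd11 stayed between 0.988 and 0.994 in these cases.

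As the share of paralog groups 9 to 13, the group medians for sham and days 1, 7 and 14 were 34.4%, 35.2%, 34.2% and 35.8%. As the mean log2(FPKM + 1) of groups 10 to 13 minus that of groups 4 to 8 they were -1.33, -1.33, -1.42 and -1.29. The tables hold no counts, so that low levels, such as those of groups 12 and 13, carry an unknown counting error.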
